A study of Rattus norvegicus with 4 samples.

Results

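The core circadian clock of the colon was followed through 10 genes, Nr1d1, Nr1d2, Dbp, Tef, Nfil3, Bmal1, Clock, Per1, Per2 and Cry1, in colon tissue of rats with and without mesenchymal stem cell transplantation (MSCT). The genes were taken by name from textbook knowledge of the clock, but as a set they were chosen by the log2 difference between the MSCT and control arrays, whose values were already known and were large in most of them. Their differences between the groups are therefore given as a description, with no test. All 10 genes had 1 row with a value on all 4 arrays, out of 18350 measured rows and 6963 genes that could be named through RefSeq accessions.

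One-color arrays measured total RNA of whole colon tissue from male Sprague Dawley rats, with 2 control arrays and 2 MSCT arrays. The labels number the arrays as replicates, and the paper does not say whether each held RNA of a single rat. Below, each array is taken as 1 rat. The MSCT group had experimental inflammatory bowel disease (IBD), which the paper induced with trinitrobenzene sulfonic acid (TNBS) in ethanol placed in the colon, and then received mesenchymal stem cells (MSCs), stromal precursor cells from a supplier that carried green fluorescent protein from a virus, through the tail vein. The control group had no transplantation, and the sources differ on whether it had IBD: the sample descriptions call these rats normal, while the series' design text and the paper make them IBD rats. For the arrays, the paper gives one sampling day in its Methods and another in its Results, the labels give no day, and neither source gives the ages or the hour at which tissue was taken. Pieces covering the lesion were used, so every value is an average over epithelium, muscle, nerve and immune cells, in which fewer cells of a type and less RNA per cell cannot be told apart.

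The circadian clock is a loop of transcription factors that runs in nearly every cell with a period of about a day. Bmal1 and Clock bind together to E-box sequences and switch on the Per and Cry genes, whose proteins return to the nucleus and block Bmal1 and Clock. The same pair switches on Nr1d1 and Nr1d2, which repress Bmal1 through ROR elements, and Dbp and Tef, which act on D-box sequences that Nfil3 occupies as a repressor. In the gut, the clock sets daily rhythms of absorption, motility and epithelial renewal, and Bmal1 and Nr1d1 peak at opposite times of day.

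The 10 genes separated into 3 patterns. Nr1d1, Nr1d2, Dbp, Tef and Per1 were higher on both MSCT arrays than on both control arrays, by between 0.93 (Tef) and 2.50 (Nr1d1) on the log2 scale. Bmal1, Cry1, Clock and Nfil3 were lower on both MSCT arrays, by between 0.70 (Nfil3) and 1.85 (Bmal1) in size. Per2 lay between 11.73 and 11.83 on all 4 arrays, and its groups overlapped. The median difference over the 6 genes with a positive difference, Per2 included, was 1.43, and over the 4 with a negative difference -0.95. Each median lies on its side of 0 because the genes were split by sign. Over all measured rows, with no such split, the median was -0.02. The median absolute difference of the 10 genes was 1.26, against 0.20 over the 4609 rows in their range of mean intensity. Without overlap between the groups, 5 of the 10 genes were higher and 4 lower in the MSCT group. Over all rows, 21.3% were higher without overlap and 24.5% were lower, which is printed for scale only, since the genes were selected on this contrast.

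**Figure D1:**
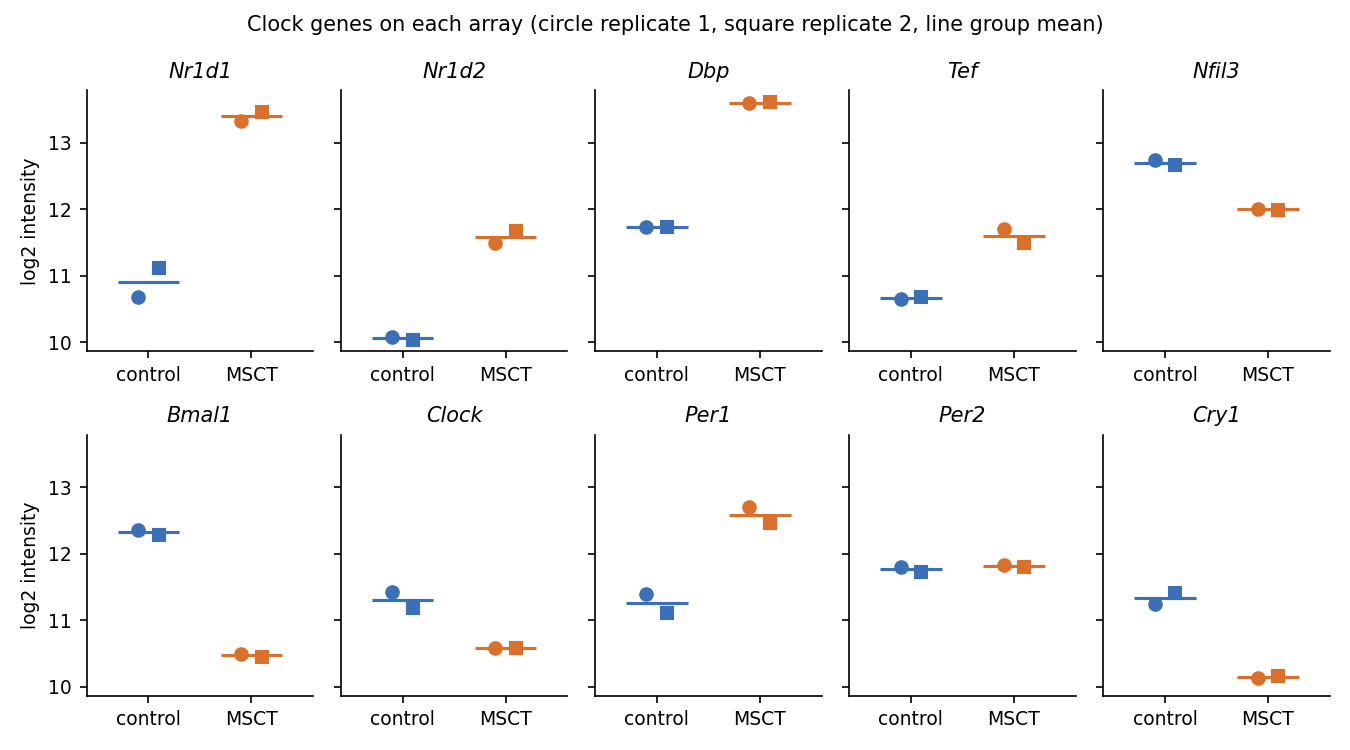
Each panel shows 1 clock gene with its log2 intensity on the 4 arrays (control in blue, MSCT in orange, circle for replicate 1, square for replicate 2, line for the group mean). Nr1d1, Nr1d2, Dbp, Tef and Per1 sit higher in the MSCT group, Nfil3, Bmal1, Clock and Cry1 sit lower, and Per2 lies between 11.73 and 11.83 in both groups.

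The nuclear receptors of the negative limb were both higher, and Nr1d1 had the largest difference of the 10 genes. Nr1d1 (NM_145775), the haem-binding repressor also called Rev-erb alpha, measured 1650 and 2219 intensity units in the control rats and 10283 and 11329 in the MSCT rats. Both MSCT values were far above both control values, although the control rats themselves differed by 0.43 log2 units, the widest gap between replicates among the 10 genes. The difference of 2.50 (standard error of the limma fit 0.23) is 5.64-fold, and 26 of the 18350 rows, Nr1d1 among them, differed at least as far upwards. Nr1d2 (NM_147210), its paralog Rev-erb beta with the same target sequences, had log2 values of 10.09 and 10.04 without transplantation against 11.50 and 11.67 with it. The lowest MSCT value thus lay 1.41 above the highest control value, and the difference was 1.52 (standard error 0.19, 2.87-fold).

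Bmal1, the partner of Clock and the target that Nr1d1 and Nr1d2 repress, was the gene with the largest negative difference. Its intensities (NM_024362) were 5264 and 4968 on the control arrays against 1440 and 1400 on the MSCT arrays. Replicates of either group lay within 0.08 log2 units of each other, and the groups were 1.79 apart at their closest. The difference was -1.85 (standard error 0.18), a 3.60-fold lower level in the MSCT group, and 33 rows in all lay at or below it. Clock (NM_021856), the DNA-binding partner of Bmal1, differed less. Its log2 values were 11.42 and 11.18 for the control rats against 10.58 for both MSCT rats, a difference of -0.71 (standard error 0.20). The control rats were 0.24 apart for Clock and the MSCT rats 0.002.

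The promoters bear on these loops, because the factors that bind DNA in them have known sequences. RefSeq start-site windows of the rat assembly GRCr8, each from 250 bases before to 50 bases after a start, were matched by symbol for 9 of the 10 genes (all but Cry1), with 11 windows in all, since Nr1d1 and Clock have 2. They were searched on both strands for the E-box CACGTG, the D-box TTANGTAA, the ROR element ANTNGGTCA and the cAMP response element TGACGTCA, none of which overlapped another where found. The 4 windows with a match are shown here to let a reader see where the binding sequences of the clock lie in genes that differed in opposite directions (Nr1d1 and Tef against Bmal1) or not at all beyond the replicates (Per2). Sequences run 5′ to 3′ along the gene, and capitals mark the match.
Bmal1 (chr1:176766078-176766377, plus strand), ROR element: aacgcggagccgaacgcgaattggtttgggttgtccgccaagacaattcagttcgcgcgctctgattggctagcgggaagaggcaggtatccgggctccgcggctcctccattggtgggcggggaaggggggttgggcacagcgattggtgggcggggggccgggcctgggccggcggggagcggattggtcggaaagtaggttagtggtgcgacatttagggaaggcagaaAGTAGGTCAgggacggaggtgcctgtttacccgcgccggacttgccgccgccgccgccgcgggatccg
Nr1d1, second start (chr10:84229405-84229704, minus strand), E-box: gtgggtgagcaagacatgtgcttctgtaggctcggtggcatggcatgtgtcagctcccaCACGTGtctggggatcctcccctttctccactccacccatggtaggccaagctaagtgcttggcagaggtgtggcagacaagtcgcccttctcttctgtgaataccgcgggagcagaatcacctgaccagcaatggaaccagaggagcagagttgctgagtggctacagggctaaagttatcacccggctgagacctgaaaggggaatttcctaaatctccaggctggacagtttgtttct
Tef (chr7:115206577-115206876, plus strand), E-box: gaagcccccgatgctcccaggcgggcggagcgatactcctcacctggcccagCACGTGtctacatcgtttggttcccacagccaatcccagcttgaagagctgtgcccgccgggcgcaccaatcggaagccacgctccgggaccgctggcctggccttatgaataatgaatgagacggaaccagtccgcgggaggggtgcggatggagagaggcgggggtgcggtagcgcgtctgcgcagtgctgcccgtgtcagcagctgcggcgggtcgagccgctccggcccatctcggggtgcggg
Per2 (chr9:99496944-99497243, minus strand), D-box: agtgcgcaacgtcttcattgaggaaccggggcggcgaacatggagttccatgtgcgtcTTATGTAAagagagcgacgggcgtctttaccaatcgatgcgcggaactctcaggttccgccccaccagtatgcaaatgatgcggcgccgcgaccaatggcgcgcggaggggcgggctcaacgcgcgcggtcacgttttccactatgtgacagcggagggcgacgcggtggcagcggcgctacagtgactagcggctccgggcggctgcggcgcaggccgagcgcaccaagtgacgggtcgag

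In Bmal1, the ROR element began 18 bases before the start site, and 2.486% of all 33469 windows held such a match. The E-box of Nr1d1 began 191 bases before its second start and that of Tef 198 bases before its start, and 6.418% of all windows held an E-box. The D-box of Per2 began 192 bases before the start, and 2.238% of all windows held a D-box. The cAMP response element was in 1.829% of all windows and in 0 of the 11 windows of these genes. A match is a description of the letters, not evidence of binding, and the other 7 windows, those of Dbp, Per1, Nr1d2, Nfil3, Clock (both) and the first of Nr1d1, lack only these spellings in this stretch.

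Among the factors that act on the D-box, the activators and the repressor differed in opposite directions. Dbp (NM_012543), a PAR bZIP activator and a classical output of Bmal1 and Clock, measured 3407 and 3402 intensity units in the control rats against 12395 and 12487 in the MSCT rats. Its replicates were the closest of the 10 genes, with a within-group SD of 0.005 log2 units against a median of 0.24 over all rows. The difference was 1.87 (standard error 0.18, 3.65-fold), and 76 rows differed at least as far upwards. Tef (NM_019194), a PAR bZIP factor related to Dbp with an E-box in the window above, had log2 values of 10.65 and 10.69 in control rats against 11.70 and 11.49 in MSCT rats. Its difference of 0.93 (standard error 0.19) is 1.90-fold, the smallest among the 5 genes that were higher without overlap.

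Nfil3 (NM_053727), the bZIP repressor also called E4bp4 and a gene that Nr1d1 and Nr1d2 repress, was lower in the MSCT group. Its log2 values were 12.74 and 12.67 for control rats against 12.01 and 11.99 for MSCT rats. The groups were 0.66 apart at their closest, against gaps of 0.07 and 0.02 within them. The difference was -0.70 (standard error 0.18), a 1.63-fold lower level, which 1576 of all rows matched or passed downwards, so that in size it is common on these arrays.

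The repressors of the E-box loop did not share a direction. Per1 (NM_001034125), which responds to hormonal and other acute signals as well as to the clock, was higher in the MSCT group. Its intensities were 2696 and 2204 for control rats against 6661 and 5637 for MSCT rats, with replicate 1 above replicate 2 in both groups. The difference was 1.33 (standard error 0.22, 2.51-fold). Per2 (NM_031678), the paralog of Per1 and, as Per1 is, a repressor of Bmal1 and Clock, had intensities of 3578 and 3398 in control rats against 3630 and 3574 in MSCT rats. Its difference of 0.05 (standard error 0.18) is smaller than its standard error, and the lower MSCT array lay below the higher control array. Cry1 (NM_198750), a direct repressor of Bmal1 and Clock, was lower in the MSCT group, with 2434 and 2718 on the control arrays against 1125 and 1140 on the MSCT arrays. Its difference was -1.18 (standard error 0.19), a 2.27-fold lower level. Per1 and Cry1, whose proteins act in a shared complex, thus stood on opposite sides of the control level, and the difference between Per1 and Per2 was not tested because both were chosen with these values known.

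Variation between arrays of 1 group is a measure that the choice of genes did not use. The median within-group SD of the 10 genes was 0.08 log2 units, from 0.005 (Dbp) to 0.22 (Nr1d1). Over the 4609 rows with a mean intensity in the range of these genes it was 0.15. The control rats were farther apart than the MSCT rats for 7 of the 10 genes, with a median gap of 0.08 against 0.03. How many of all rows shared this order was not counted, so it is not read as a trait of these genes. The exceptions among the 10 were Nr1d2, Dbp and Tef. Nr1d1 and Cry1 were the genes with a clearly higher value in control replicate 2 than in control replicate 1 (by 0.43 and 0.16), while Per1 and Clock were lower there (by 0.29 and 0.24). Between the control arrays, Nr1d1 and Per1 thus differed in opposite directions, although both were higher in the MSCT group. A single pair of arrays cannot show whether the genes vary together.

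**Figure D2:**
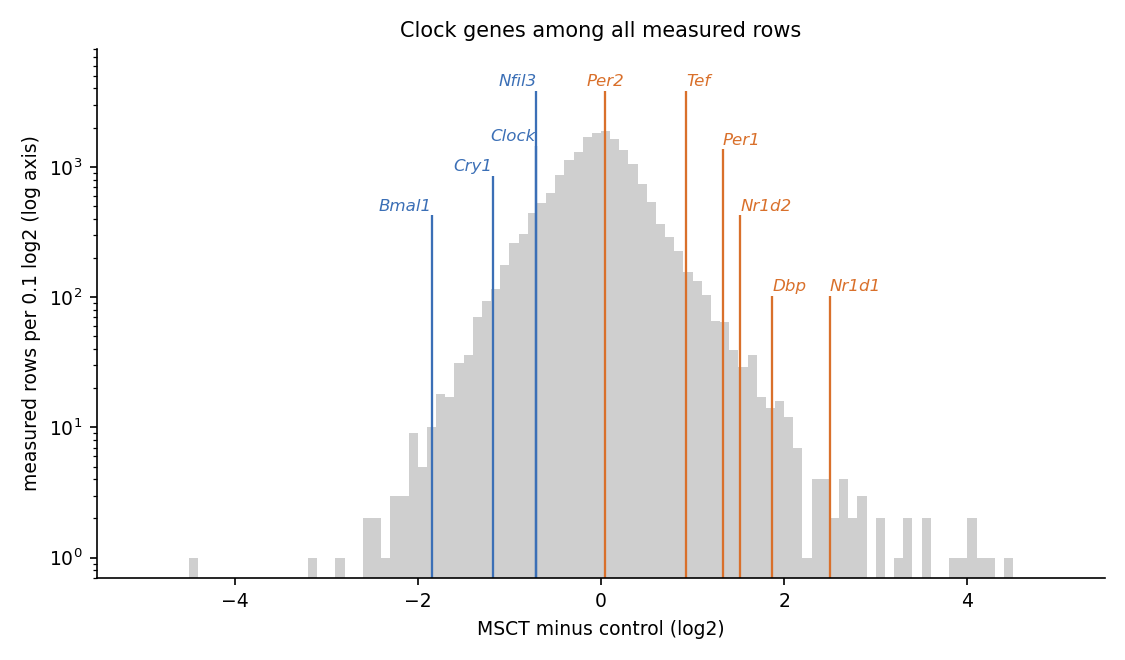
The histogram counts measured rows by the difference of MSCT minus control (log2, bins of 0.1, log axis), and lines mark the 10 clock genes (orange for positive, blue for negative differences). Nr1d1 (2.50) and Bmal1 (-1.85) stand in the thin tails, Per2 (0.05) at the centre, and Nfil3 and Clock coincide near -0.71.

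Other genes of the clock were described from 4 lists, which were drawn up with earlier results of these data known. Their shares are therefore a description and cannot test for an excess among clock genes. Of 48 genes, 35 had a measured row. By limma with an unadjusted p under 0.05, 4 of the 35 were higher in the MSCT group (11.4%, against 4.8% of all rows) and 4 were lower (11.4%, against 7.17% of all rows). With a fold change over 2 added to the limma p, called the limma screen here, 3 were higher (8.57%, against 2.12% of all rows) and 1 lower (2.86%, against 2.51% of all rows). By the methods' t-test, 3 of the 35 had an unadjusted p under 0.05 (8.57%, against 9.66% of all rows). At the p limit alone, the larger share among clock genes was thus seen with limma and not with that test. With a fold change over 2 as well, the methods' t-test left 2 higher (5.71%, against 1.04% of all rows) and 1 lower (2.86%, against 1.07%). These larger shares rest on the same 3 genes. With Benjamini-Hochberg adjustment over the 18350 rows, 0 rows of the whole table reached 0.05 with either limma or the methods' t-test, so every call here rests on an unadjusted p, while 2196 and 1772 rows had an unadjusted p under 0.05 by these tests. The median difference of the 35 genes was 0.05, with 19 higher and 16 lower, so as a set they had no common direction. Nor had the 10 core genes, of which 6 were higher and 4 lower.

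Of the other transcription factors of the clock loops, 4 of 11 were measured and 2 had an unadjusted limma p under 0.05. Bhlhe41, the E-box repressor also called Dec2, passed the limma screen upwards, with log2 values of 5.63 and 6.81 in control rats against 8.63 and 9.10 in MSCT rats. Its control intensities were low, at 50 and 112, against array medians of 848 to 893. The control rats were 1.18 apart, the groups did not overlap, and the difference was 2.64 (standard error 0.46, unadjusted limma p of 0.0033, adjusted p = 0.26). By the methods' t-test, with an unadjusted p of 0.0531, Bhlhe41 was not called. Its paralog Bhlhe40 (Dec1) had a difference of 0.26 (standard error 0.22) and did not pass. Cry2, the paralog of Cry1, was lower at an unadjusted limma p of 0.0446, with 12.43 and 12.23 against 11.88 and 11.63 on the log2 scale. Its difference of -0.58 (standard error 0.21, limma adjusted p = 0.409) has the direction of Cry1. Its p was 0.05 or more in 6 of 11 alternatives, the methods' t-test and each of the 4 left-out arrays among them, and ranged up to 0.222. Per3, the remaining Per gene, had a difference of 0.44 (standard error 0.22) and did not pass. The other 7, Npas2, Bmal2, Ciart and Hlf among them, had no row under their names.

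Kinases and ubiquitin ligases set the speed of the clock by modifying Per and Cry proteins. Their list here also held Usp2, Timeless, Tipin and Nono, which are neither kinases nor ligases. Of the 12 measured genes of the list, 0 passed an unadjusted limma p of 0.05, and 0 by the methods' t-test. The differences of the 12 genes ran from -0.35 (Timeless, whose product links the clock to DNA replication) to 0.38 (Usp2, a deubiquitinase with a strong daily rhythm in many tissues). For Csnk1d and Csnk1e, the kinases that mark Per proteins for breakdown, the differences were -0.17 and -0.13 (standard error 0.19 each).

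Of the clock-controlled output genes of many tissues, 11 of 14 were measured, and 2 were higher and 2 lower at an unadjusted limma p under 0.05. Fkbp5, a chaperone partner of the glucocorticoid receptor, had log2 values of 6.31 and 6.95 in control rats against 9.47 and 9.06 in MSCT rats, a difference of 2.63 past the limma screen (standard error 0.31, limma adjusted p = 0.257). Control intensities of Fkbp5 were also low, at 79 and 124, against array medians of 848 to 893. Pdk4, a kinase that turns down glucose oxidation, passed the limma screen with a difference of 1.19 (standard error 0.21, limma adjusted p = 0.26), at 8.40 and 8.58 against 9.56 and 9.79. Tsc22d3, which encodes the glucocorticoid-induced leucine zipper, passed it downwards with a difference of -1.17 (standard error 0.19, limma adjusted p = 0.26), at 12.40 and 12.61 against 11.30 and 11.36. Fkbp5 and Tsc22d3, both known targets of the glucocorticoid receptor, thus differed in opposite directions. Cirbp, a cold-inducible RNA-binding protein that follows the daily rhythm of temperature, had a difference of -0.57 (standard error 0.20, limma adjusted p = 0.409) and did not reach 2-fold. Its p was 0.05 or more in 7 of 11 alternatives, the methods' t-test among them, while Fkbp5, Pdk4 and Tsc22d3 also passed by the methods' t-test. Wee1, the cell cycle kinase with E-boxes known from other species, had a difference of 0.21 (standard error 0.34), and its control arrays were at 9.70 and 8.84.

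**Figure D3:**
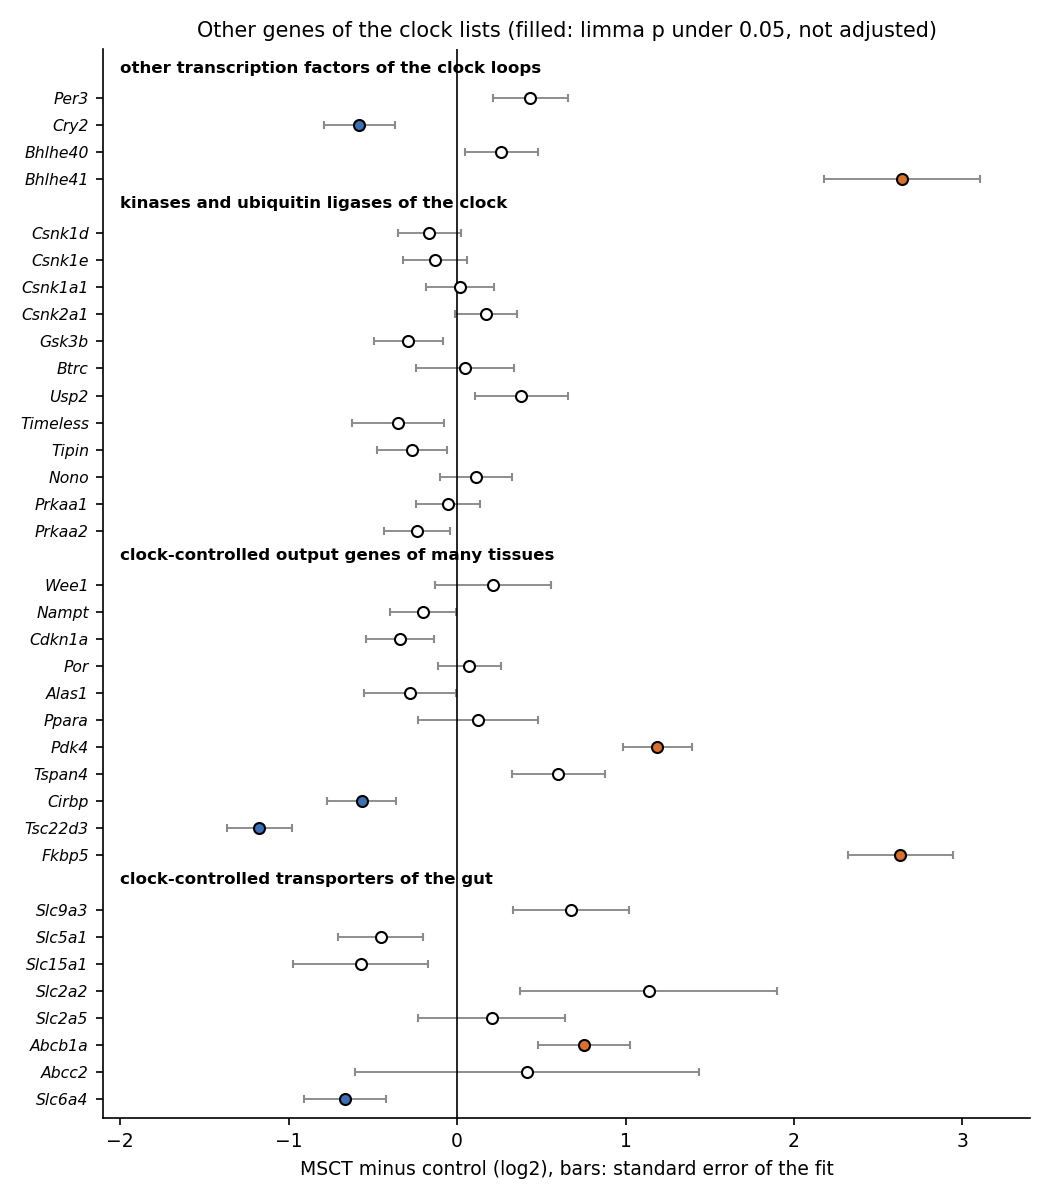
The difference of MSCT minus control (log2) is shown for the 35 measured genes of the 4 wider clock lists, with the standard error of the limma fit as bars and filled points for an unadjusted p under 0.05. Bhlhe41 and Fkbp5 lie beyond 2.6, Pdk4 near 1.2 and Tsc22d3 near -1.2, and all genes of the list of kinases and ligases lie within 0.4 of 0.

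Among 8 transporters of the gut whose genes follow the clock, 1 was higher and 1 lower at an unadjusted limma p under 0.05, and none passed the limma screen. Abcb1a, the drug efflux pump P-glycoprotein, had a difference of 0.76 (standard error 0.27, limma adjusted p = 0.409), with 11.89 and 11.63 in control rats against 12.79 and 12.24 in MSCT rats. Slc6a4, the serotonin transporter, had a difference of -0.67 (standard error 0.24, limma adjusted p = 0.411). Both missed 0.05 with the methods' t-test, and the p was 0.05 or more in 5 of 11 alternatives for Abcb1a and in 7 of 11 for Slc6a4. In this list single arrays decided the count. Without control replicate 2, Slc9a3, Slc2a2 and Abcc2 also passed the screen, with differences of 1.06, 2.24 and 1.84, and the number of called genes over the 4 lists was 7 in place of 4. Without MSCT replicate 2, Abcb1a passed it too, with a difference of 1.03, and the count was 5. For Slc2a2 the control arrays lay at 7.67 and 9.87, and for Abcc2 at 6.63 and 9.47.

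Genes that followed Nr1d1 most closely across the 4 arrays were sought among the 469 other named genes with an absolute difference of at least 1 log2 unit. The points form a control pair and an MSCT pair, so that Pearson's r mainly repeats the difference between the groups and adds the order within each, and it is given as a description with n = 4. The highest values were those of Zg16, a goblet cell lectin, with r = 0.9996, Nupr1, a stress-induced chromatin protein, with r = 0.9996, Cxcl12, Serping1 and Gmds. The lowest were those of Slc36a1, a proton-coupled amino acid transporter, with r = -0.9995, Trpv1, Pmaip1, RT1-N2 and Kirrel1. Of the 469 genes, 26 had an r above 0.99 and 15 an r below -0.99, Dbp (0.992) and Bmal1 (-0.996) among them. Nfil3 (-0.9986) and Clock (-0.993) had values as far out but differed by less than 1, while Per1 had 0.949 and Per2 0.55.

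Markers of the cell types in the colon differed between the same arrays, and their part in the differences of the clock genes was not tested. Of 15 epithelial markers, 11 were measured, Krt20, Lgals4, Slc26a3 and Cdx2 among them, while Vil1, Cdx1, Car1 and Muc2 had no row by name. Of the 11, 9 were higher, and Aqp8 (-0.30) and Krt19 (-0.05) were lower. The summed intensity of the 11 was 163858 to 165927 on the control arrays and 184955 to 190930 on the MSCT arrays. Of these, 1 marker, Tff3, passed the limma screen (difference 1.49), which 2.12% of all rows passed upwards and 2.51% downwards. Smooth muscle markers showed no such gap, at 141287 to 171485 against 154976 to 159204, with 0 of 5 past an unadjusted limma p of 0.05 and the largest difference in size for Cnn1 (0.08). Of 6 measured macrophage and granulocyte markers, 3 passed the limma screen upwards (largest for Aif1, 1.39), with sums of 12411 to 13776 and 14958 to 17728. Of 6 measured T cell and cytotoxic markers, 3 passed it upwards (Gzmb 1.92, Zap70 1.89 and Nkg7 1.72), with sums of 891 to 1041 and 1791 to 2028. Control intensities of these 3 were low, at 58 to 187, against array medians of 848 to 893. The other markers of that list, Cd4 (0.37), Cd3g (0.13) and Cd8a (0.01), overlapped between the groups. With the methods' t-test in place of limma, Tff3 and 2 of the macrophage and granulocyte markers passed, and 0 of the T cell and cytotoxic, nerve and glia, or other markers. Fibroblast markers had sums of 26295 to 40261 and 43454 to 45734 (5 of 7 measured, 0 past the limma screen, largest for Pdgfrb, 0.86). Of 7 measured nerve and glia markers, 6 were lower and 1 passed the limma screen (Elavl4, -1.06), with sums of 9745 to 9769 against 6910 to 7526. Xbp1 was the single measured gene of 6 B and plasma cell markers (1.00). The markers Cd3d, Cd2, Itgam, S100a8 and Cd79b were blank on all 4 arrays.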

How the data were processed

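Total RNA of colon tissue was hybridized to one-color NimbleGen arrays, each taken here as 1 rat. The authors scanned the arrays, extracted them with NimbleScan and deposited 1 table with a linear intensity per transcript and array. RMA is named in the submitters' processing notes, without its settings, and the rule for blank rows is not given in the sources used here. Of 26420 rows, 18350 held a value on all 4 arrays, and 0 value columns had no sample. Array medians were 848 to 893, so no array stood apart in brightness. The number of arrays limits the precision: an exact permutation of 2 against 2 arrays cannot give a two-sided p under 0.333, and each limma p rests on a variance shared between rows.

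Intensities were taken as log2 values with no pseudocount, further scaling or filter. limma 3.58.1 in R 4.3.3 (lmFit, eBayes) was fitted to all 18350 rows, with Benjamini-Hochberg adjustment over all of them. Calls used the limits of the study's methods with limma's p in place of theirs: below 0.05 before adjustment, together with more than a 2-fold difference. A t-test with equal variances on log2 values, called the methods' t-test, was an alternative with the same limits. The paper states these limits for the arrays but names no t-test. Rows were named with RefSeq accessions (GRCr8 gene table, names only), which matched 7062 measured rows, and the row with the highest mean was used for a gene. The fit was tested on simulated data. Python 3.11.15 and pandas 2.3.3 were used for names and promoters, and matplotlib 3.10.9 for figures.

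The clock genes, lists and tests were chosen with earlier results of these data known. Named are the 10 clock genes, genes of a list with an unadjusted p under 0.05 (in a list with none, the gene with the largest difference), the 5 genes most like and most unlike Nr1d1, and the marker with the largest difference in each list. Per3, Bhlhe40, Wee1, Csnk1d, Csnk1e, Timeless, Tipin, Nono, Slc9a3, Slc2a2, Abcc2 and the other markers were named after their values were seen. The paper does not say that the arrays held separate rats, or rats of separate litters or days, so p-values measure only the spread between these arrays.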

Additional observations from a re-analysis of the deposited data

How the results depend on the processing

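The sign of the difference of all 10 clock genes was kept under every alternative that was run on them (each array left out in turn, the ratio of linear means, a filter that drops the dimmer 50% of rows, equal array medians and quantile normalization). Some of these could not have changed it. Where the groups do not overlap, leaving out a single array or taking linear means cannot reverse the sign. The filter leaves each difference as it was. The difference of Per2, 0.05 with a standard error of 0.18, lay between 0.01 and 0.09, so its sign gives no clear direction. Leaving out single arrays moved the median of the genes with a positive difference between 1.34 and 1.51, and that of the genes with a negative difference between -0.97 and -0.94. Dbp moved by more than its very small SD with quantile normalization (1.85) and equal medians (1.91), and Nfil3 with equal medians (-0.67). Each clock gene has a single measured row, so the choice of row could not differ.

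The number of rows called over the whole table, 850, fell to 388 with the methods' t-test and to 251 without the lower 50% of rows. It rose to 2019 with a fold limit of 1.5, and lay between 934 and 1565 with single arrays left out (1565 without control replicate 2, 1503 without MSCT replicate 2). With the last filter, the called genes of the 4 wider lists fell from 4 to 1, since 24 of the 35 genes were kept and Bhlhe41, Pdk4 and Fkbp5 were not. With single arrays left out this count was between 4 and 7. Bhlhe41 had a p of 0.0531 by the methods' t-test. An intensity-dependent, robust variance put Bhlhe41, Tsc22d3 and Fkbp5 past an adjusted limma p of 0.05 (0.0395, 0.00599 and 0.0225). The same setting put 387 of all 18350 rows past that limit, against 0 in the main fit.

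The replicate numbers of the labels are not stated to pair the rats. Deviations of same-numbered arrays from their group means correlated at 0.234 across rows, which rests on 2 pairs. With the replicate block, 971 rows and 4 genes of the wider lists were called, the same 4 genes as without it, while Cirbp and Slc6a4 no longer had a p under 0.05 (0.0639 and 0.0636 by limma).

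With 2 arrays a group, the limits are few rats and no background level in the table used here. The median within-group SD was 0.24 over all rows and 0.15 over rows as bright as the clock genes.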
